A study of Mus musculus with 8 samples.

Results

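Knockout of C1galt1c1 (Cosmc) was examined in 2 mouse pancreatic ductal adenocarcinoma cell lines, 2838c3 and 6499c4, by RNA sequencing of polyadenylated transcripts. The 4 libraries, 1 wild-type (WT) parent and 1 C1galt1c1 knockout (KO) of each line, were taken by their labels from the 8 libraries of 4 lines in the series. The KO samples bear the line's name with the suffix Tn. All lines were grown as cultures in high-glucose DMEM with fetal bovine serum and antibiotics, and the design text describes harvest at matched confluence. How the knockout was made, and whether a KO line is 1 clone or a pool, the sources used here do not say, and the labels do not state that a culture was repeated. Tumours grown from both lines are known for holding many T cells, which the labels do not state and cultured cells cannot show. Of 49315 gene identifiers, 13154 reached a TPM of 1 in at least 2 of the 4 libraries and were kept. TPM is a transcript's length-scaled share of a library, each of which sums to 1000000. A difference below is KO minus WT of a line on the log2(TPM + 1) scale, after the median difference over all genes kept was taken off. That median was -0.08 in 2838c3 and -0.10 in 6499c4.

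C1galt1c1 encodes a chaperone of the endoplasmic reticulum that the galactosyltransferase C1galt1 needs to fold. Without active C1galt1, O-linked glycans on mucins and other glycoproteins stop at the first sugar, the Tn antigen, which is common on pancreatic cancers. No glycan was measured in these data, so Tn rests on the labels.

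C1galt1c1 (ENSMUSG00000048970, chromosome X, 37719034 to 37724025 on the minus strand of GRCm39) was lower in the KO library of each line. It went from 40.4 to 15.3 TPM in 2838c3 and from 54.2 to 19.0 TPM in 6499c4, so that 38% and 35% of the parental level were left, and both KO libraries lie below both WT libraries. C1galt1, its client enzyme, stood at 28.9 TPM in WT and 52.1 TPM in KO of 2838c3, and at 35.2 and 23.04 TPM in 6499c4.

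All 4 libraries carried ductal markers. The 12 ductal markers summed to between 20420 and 38410 TPM, carried by keratins, Spp1, Cdh1, Tspan8 and Muc1, while Epcam was at 1.35 TPM in the 2838c3 parent and Cftr was below 0.41 TPM in both 2838c3 libraries. Of 15 immune markers 2 reached 1 TPM, Cd14 and Cd68, and Cd3d, Ms4a1 and Adgre1 were listed at 0 in all 4 libraries. Summed fibroblast markers lay between 132.3 and 253.4 TPM, most of it Gsn. Of 11 fibroblast markers 3 reached 1 TPM, Gsn, Col1a1 and Thy1, while others such as Col1a2, Dcn and Pdgfrb stayed under it. Col1a1 was highest in the 2838c3 KO library, at 5.62 TPM, and Thy1 in the 2838c3 parent, at 5.045 TPM. Of 10 endothelial markers 3 reached 1 TPM, Egfl7, Flt1 and Esam, and the 10 summed to between 12.06 and 12.99 TPM. The 6499c4 KO library correlated with its own parent at r = 0.983 across genes and with the nearest other parent at 0.921. For the 2838c3 KO library these values were 0.946 and 0.941, the latter with the parent of 6694c2, another line of the series. Of 84 genes above 5 TPM in the parent of one of those lines and below 0.5 TPM in that of the other, 36 of 43 marking 2838c3 and 32 of 41 marking 6694c2 were nearer in that KO library to the 2838c3 parent, 81.0% in all. The same check of the 2838c3 KO gave 91.9% against the parent of 6499c4 and 95.3% against that of 6419c5. For the 6499c4 KO it gave 94.6% to 96.5%, so the 81.0% is the lowest of these shares. Mitochondrially encoded genes took 2.09% of the 2838c3 parent's TPM and 3.82% of its KO, against 2.92% and 2.02% in 6499c4. The part of these differences in the results below was not tested.

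The differences were wider in 2838c3. Their SD over the genes kept was 0.73 in 2838c3 and 0.40 in 6499c4. At least 2-fold higher in KO were 790 genes of 2838c3 (6.01% of the genes kept) and 164 of 6499c4 (1.25%), and at least 2-fold lower were 847 (6.44%) and 179 (1.36%). In both lines 58 genes were higher (0.441%) and 39 lower (0.296%). The 58 are 7.34% of the higher genes of 2838c3 and 35.4% of those of 6499c4, and the 39 are 4.6% and 21.8% of the lower ones. In opposite directions stood 18 genes higher in 2838c3 and lower in 6499c4 (0.137%) and 22 the other way (0.167%). The 18 are 10.1% of the lower genes of 6499c4, beside 6.01% of all genes that were higher in 2838c3. The 22 are 13.4% of the higher genes of 6499c4, beside 6.44% of all genes that were lower in 2838c3. A gene was assigned to 2838c3 alone when its difference there was 2-fold or more and that of 6499c4 lay within 0.5 on the log2 scale. There were 514 such genes higher (3.91%) and 632 lower (4.8%). Within 0.1 of the 2-fold limit, 296 genes of 2838c3 lay just inside and 388 just outside, against 68 and 95 in 6499c4.

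**Figure D1:**
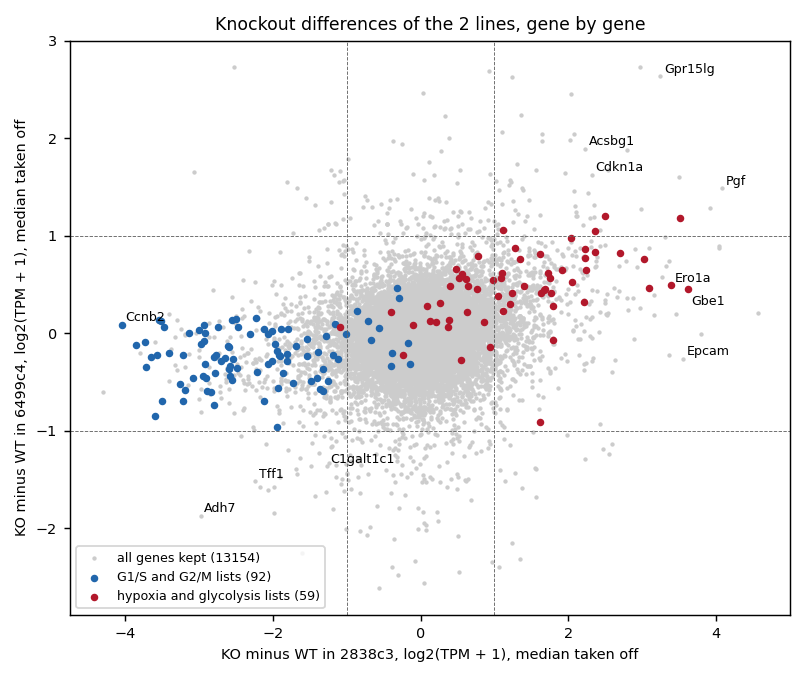
Each point is a gene, placed by its KO minus WT difference in 2838c3 (x axis) and 6499c4 (y axis) on the log2(TPM + 1) scale with the median taken off; dashed lines mark a 2-fold difference. Cell cycle genes (blue) spread to the left along 0 of 6499c4, hypoxia and glycolysis genes (red) lie to the right and mostly above 0, and Gpr15lg, Acsbg1 and Cdkn1a stand high in both.

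No gene passed limma's test over the 2 pairs with the line as a block (0% of 13154 genes at a Benjamini-Hochberg adjusted p under 0.05), and 1023 had an unadjusted p under 0.05. With 2 pairs the fit has 1 residual degree of freedom beside its prior. The genes below are therefore described by their level in every library, and since their differences chose them, those differences are no test. With 1 library per line and genotype, no difference within a line has a replicate check.

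Among the genes higher in both KO lines, Gpr15lg (ENSMUSG00000096001, chromosome 14, 36824097 to 36835979 on the minus strand of GRCm39) came first. It encodes a secreted ligand of the lymphocyte homing receptor GPR15. Its level went from 1.07 to 17.7 TPM in 2838c3 and from 39.8 to 235 TPM in 6499c4. The KO library of each line lies far above its parent, yet the 2838c3 KO is below the 6499c4 parent, so the groups overlap. The mean difference was 2.94 with an SE of 0.28 on the log2 scale (n = 2 lines), and limma's adjusted p was 0.210, the lowest of all genes.

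Acsbg1, a long-chain acyl-CoA synthetase, went from 15.4 to 71.9 TPM in 2838c3 and from 17.4 to 62.6 TPM in 6499c4, which keeps both KO libraries above both parents. Cdkn1a, the cyclin-dependent kinase inhibitor p21, went from 44.0 to 212 TPM and from 10.5 to 32.1 TPM. Its 6499c4 KO level stayed below the 2838c3 parent, so the groups overlap although both lines differ by 2-fold or more. Kdelr3, which returns chaperones from the Golgi to the endoplasmic reticulum, stood at 38.5 and 96.2 TPM in 2838c3 and at 12.5 and 34.4 TPM in 6499c4.

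Several secreted or matrix genes stood in the same group at unequal size. Pgf, a placental growth factor of the VEGF family, was at 2.40 and 53.9 TPM in WT and KO of 2838c3 and at 2.05 and 6.98 TPM in 6499c4. Inhba, the beta subunit of activin A, was at 9.18 and 45.8 TPM and at 3.80 and 11.2 TPM. Col6a1, a collagen VI chain, was at 39.1 and 160 TPM and at 4.50 and 13.1 TPM. Both KO libraries exceeded both parents for Pgf and Inhba, and not for Col6a1. The epithelial serine protease Prss27 reached 5.37 TPM from 0.32 in 2838c3 and 2.20 from 0.38 in 6499c4. Tmem95, a sperm membrane protein gene, reached 17.7 TPM from 0.30 and 2.29 from 0.45. Aim2, a sensor of cytosolic DNA, reached 3.33 from 0.78 and 7.19 from 0.86 TPM. Prss27, Tmem95 and Aim2 were below 1 TPM in both parents. The filter kept these genes only through the KO libraries, which fixed their direction. Apol9b and Prl2c3 belong to families of near-identical copies, so their levels of 9.20 to 25.8 and 6.15 to 16.2 TPM, and of 5.32 to 67.2 and 39.4 to 114 TPM, are uncertain. Of the 58 genes 32 are protein-coding and 16 are small RNA genes, such as snoRNA and miRNA hairpin genes, which capture on oligo(dT) measures poorly. Of the 13154 genes kept at least 11155 are protein-coding, and the small RNA genes among them were not counted.

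Of the 39 genes lower in both KO lines 20 are protein-coding, beside at least 11155 of the 13154 genes kept. Of the 39, 31 belong to none of the gene lists. Tff1, a trefoil peptide of gastric mucus, went from 935 to 187 TPM in 2838c3 and from 90.0 to 28.6 TPM in 6499c4. Adh7, a retinol-oxidising alcohol dehydrogenase, went from 27.1 to 2.38 TPM and from 42.7 to 10.1 TPM. Sult1d1, a sulfotransferase, went from 14.7 to 2.55 TPM and from 24.5 to 6.83 TPM. Both KO libraries lie below both parents for Adh7 and Sult1d1, whereas the KO of 2838c3 kept more Tff1 than the parent of 6499c4 held.

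Mal, a raft protein of apical transport, was at 143 and 60.9 TPM in 2838c3 and at 68.2 and 22.3 TPM in 6499c4. Atp9a, an endosomal lipid flippase, was at 36.2 and 7.95 TPM and at 9.84 and 2.39 TPM. The protease Bace2 was at 62.8 and 15.2 TPM and at 9.47 and 2.51 TPM. Of these 3 genes, Mal and Atp9a kept both KO libraries below both parents, and Bace2 did not. Ocln, which encodes the tight junction protein occludin, was at 25.1 and 7.92 TPM and at 27.9 and 11.4 TPM. Vtcn1, the T cell inhibitory ligand B7-H4, was at 2.74 and 0.51 TPM and at 12.02 and 3.83 TPM. Ambp, Pllp and Ugt2b36 complete the 12 genes named by rule, with differences from -1.15 to -1.68 over the 2 lines.

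**Figure D2:**
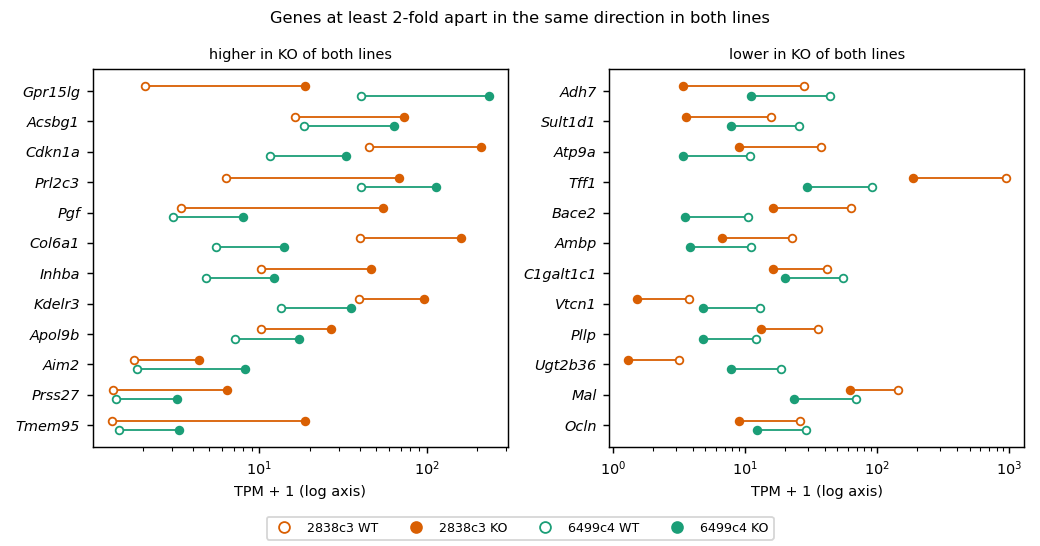
TPM + 1 on a log axis of the 12 genes higher (left) and 12 lower (right) in KO of both lines, open circles WT and filled circles KO, 2838c3 in orange and 6499c4 in green. Every line joins a WT to its KO library, and for Gpr15lg the green pair, 39.8 to 235 TPM, lies above the orange pair, 1.07 to 17.7 TPM.

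The other 2 lines, 6694c2 and 6419c5, were not used to choose these genes. Over all genes kept, 2.68% were at least 2-fold higher in KO and 3.15% lower in 6694c2, and 2.08% and 1.5% in 6419c5. At that size, 6 of the 58 genes were higher in 6694c2 and 11 lower, and 13 were higher in 6419c5 and 8 lower. Of the 39 genes, 7 were lower by that much in 6694c2 and 3 higher, and 10 were lower in 6419c5 and 4 higher. By sign alone, 18 of the 58 (31.0%) were above 0 in both of them, with a median difference of -0.36 in 6694c2 and 0.15 in 6419c5. By sign, 17 of the 39 (43.6%) were below 0 there, with medians of -0.14 and -0.68. Over all genes kept the median is 0 in each line by construction. The share of all genes on 1 side of 0 in both was not counted, so the sign counts have no background. Cdkn1a was higher in 6419c5, at 15.2 and 42.2 TPM, while in 6694c2 it was at 88.1 and 80.8 TPM. Gpr15lg was at 6.69 and 3.21 TPM in 6694c2 and at 462 and 327 TPM in 6419c5, below its parent in both. In limma's test of the KO difference of these 2 lines against that of the other 2, Gpr15lg passed, with a log2 difference of 3.43, an SE of 0.32 and an adjusted p of 0.0484. That fit called 6 of 13154 genes (0.0456%). Gpr15lg was also chosen for its difference in 2 of the 4 lines, and its call was lost under all but 1 of the other settings, with adjusted p up to 0.502.

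Genes of cell division were far below the parent in KO of 2838c3 and near it in 6499c4. They comprise the genes of DNA replication, which E2F factors switch on as cells enter S phase, and those of mitosis, which peak later in the cycle and include cyclins B and the anaphase-promoting complex. Of 46 mitosis genes 44 were at least 2-fold lower in KO of 2838c3, beside 6.44% of all genes. In 6499c4 0 of the 46 were, which is near the 1.36% of all genes. Their median difference was -2.90 in 2838c3 and -0.13 in 6499c4, and members ranged from -4.05 to -0.32 and from -0.85 to 0.46. Of 46 replication genes 38 were lower by that much in 2838c3, beside the same 6.44%, and 0 in 6499c4, near its 1.36%. Their medians were -1.76 and -0.24.

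Ccnb2 (ENSMUSG00000032218), cyclin B2, had the lowest difference of the list in 2838c3, going from 243 to 12.99 TPM, while the 6499c4 libraries held 76.3 and 75.5 TPM. Cdc20, an activator of the anaphase-promoting complex, went from 325 to 26.7 TPM and stood at 128 and 124 TPM in 6499c4. Birc5, the survivin of the chromosomal passenger complex, went from 61.8 to 3.48 TPM, beside 24.4 and 21.3 TPM. In each of these genes the 2838c3 parent is the highest and its KO the lowest of the 4 libraries. Mcm5, a subunit of the replicative helicase, went from 146 to 12.2 TPM in 2838c3, with 49.7 and 40.1 TPM in 6499c4. Mybl2, a transcription factor of the cycle, went from 51.3 to 3.20 TPM, with 11.9 and 9.30 TPM. The parent of 2838c3 was the highest of the 4 libraries for 46 of 46 mitosis genes and 45 of 46 replication genes, and its KO was the lowest for 44 and 34. Such ranks were not counted over all genes kept, so they have no background. They also partly restate the difference within 2838c3. The median mitosis gene stood at 68.7 and 7.73 TPM in 2838c3 and at 26.5 and 18.9 TPM in 6499c4, so the 2838c3 parent lay above the 6499c4 libraries and its KO below them. In bulk RNA, fewer cells in a phase and less RNA per cell cannot be told apart.

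Replication-dependent histone genes, which lack a poly(A) tail and are captured poorly, were at least 2-fold lower in KO of 2838c3 for 9 of 20 members kept of 36, beside 6.44% of all genes, and had a median of -0.85, against 0.36 in 6499c4. Among 18 cyclin-dependent kinase inhibitors and growth arrest genes 5 were at least 2-fold higher in 2838c3, beside 6.01% of all genes, namely Cdkn1a, Gadd45a, Btg1, Cdkn1b and Ccng2, and 3, Cdkn2c, Rbl1 and Gas6, were lower, beside 6.44%. Gadd45a, a DNA damage response gene, was at 52.1 and 213 TPM in 2838c3 and at 80.2 and 135 TPM in 6499c4. Cdkn1b, p27, was at 70.5 and 161 TPM and at 66.5 and 61.9 TPM.

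The promoters of mitosis genes are known for CCAAT boxes bound by NF-Y. In the 250 bases before the start of the canonical transcript on GRCm39, the letters CCAAT occurred on either strand in 24 of 44 mitosis genes with a promoter read (54.5%), in 23 of 46 replication genes (50.0%) and in 4029 of 11155 protein-coding genes kept (36.1%). The cell cycle homology region TTTGAA occurred in 10 of the 44 (22.7%) and in 11.8% of all, and the E2F site TTTGGCGC in 4 of the 46 replication genes (8.7%) and in 0.744% of all. The promoters of the 3 mitosis genes with a CCAAT match and the lowest difference in 2838c3 show how it recurs; capitals mark the match on either strand.
Ccnb2, chr9:70328875-70329124, minus strand: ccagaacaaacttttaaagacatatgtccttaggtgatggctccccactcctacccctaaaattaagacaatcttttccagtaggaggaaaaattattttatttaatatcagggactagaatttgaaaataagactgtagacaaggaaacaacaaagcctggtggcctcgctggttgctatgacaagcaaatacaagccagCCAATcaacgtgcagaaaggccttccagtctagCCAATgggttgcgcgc
Cdca3, chr6:124806401-124806650, plus strand: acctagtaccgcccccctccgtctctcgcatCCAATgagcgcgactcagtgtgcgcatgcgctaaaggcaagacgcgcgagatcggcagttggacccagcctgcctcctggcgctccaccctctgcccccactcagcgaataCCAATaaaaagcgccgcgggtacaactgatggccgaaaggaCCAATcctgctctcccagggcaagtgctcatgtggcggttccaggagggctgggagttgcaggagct
Ube2c, chr2:164611568-164611817, plus strand: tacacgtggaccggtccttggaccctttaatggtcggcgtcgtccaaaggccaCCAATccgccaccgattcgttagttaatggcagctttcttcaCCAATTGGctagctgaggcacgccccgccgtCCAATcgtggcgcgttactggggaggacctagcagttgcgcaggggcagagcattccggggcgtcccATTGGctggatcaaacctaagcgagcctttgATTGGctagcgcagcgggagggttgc
Cdca3, a regulator of mitotic entry, went from 75.9 to 5.27 TPM in 2838c3 and stood at 22.5 and 23.1 TPM in 6499c4. Ube2c, the ubiquitin-conjugating enzyme of the anaphase-promoting complex, went from 277 to 22.0 TPM beside 60.2 and 61.5 TPM.

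Genes of the hypoxia response and of glycolysis were higher in KO of 2838c3 and, by less, of 6499c4. The hypoxia-inducible factors HIF-1 and HIF-2 drive them when oxygen-dependent prolyl hydroxylases no longer mark the HIF alpha subunits for destruction. Of 41 hypoxia targets kept of 45, 27 were at least 2-fold higher in 2838c3, beside 6.01% of all genes, and 4 in 6499c4, beside 1.25%. The 4, Adm, Ankrd37, Selenbp1 and Angptl4, were higher in both. The list's median difference was 1.41 in 2838c3 and 0.47 in 6499c4. Of 18 glycolytic enzymes 9 were at least 2-fold higher in 2838c3, beside the same 6.01%, and 0 in 6499c4, near its 1.25%. In 6499c4 all 18 differences were above 0, between 0.09 and 0.82, with a median of 0.52 against 1.02 in 2838c3.

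Ero1a (ENSMUSG00000021831), an oxidase of disulfide bond formation, went from 101.3 to 1016 TPM in 2838c3, with 63.3 and 83.3 TPM in 6499c4. Bnip3, a mitophagy receptor, went from 61.9 to 507 TPM, with 90.3 and 117 TPM. Gbe1, the glycogen branching enzyme, went from 3.58 to 52.4 TPM, with 10.4 and 13.6 TPM. In these genes the 2838c3 KO library stands above the other 3, which lie closer together. P4ha2, a collagen prolyl hydroxylase, was at 12.8 and 106 TPM and at 31.1 and 49.8 TPM. Vegfa, the angiogenic growth factor, was at 102 and 463 TPM and at 116 and 170 TPM. Pgk1, a glycolytic kinase, was at 1085 and 4794 TPM and at 2921 and 3403 TPM. The parent of 2838c3 was the lowest of the 4 libraries for 27 of the 41 hypoxia targets, and its KO the highest for 30. These ranks too have no background over all genes kept, and partly restate the difference within 2838c3. Adm, the vasodilator peptide adrenomedullin, went from 0.50 to 15.3 TPM in 2838c3 and from 0.83 to 2.86 TPM in 6499c4. Adm too was kept only through the KO libraries, which fixed its direction. Car9, a carbonic anhydrase, went the other way in 6499c4, with 1.05 and 4.996 TPM in 2838c3 and 24.7 and 11.7 TPM in 6499c4. The HIF regulators Egln3 and Egln1, themselves prolyl hydroxylases, were at 59.0 and 266 TPM and at 82.6 and 298 TPM in 2838c3, and at 70.1 and 112 TPM and at 79.9 and 117 TPM in 6499c4.

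HIF binds the hypoxia response element, whose usual core is ACGTG. The core occurred, on either strand of the same 250 bases, in 19 of 41 hypoxia targets (46.3%), in 8 of 18 glycolytic enzymes (44.4%) and in 2410 of 11155 genes (21.6%). It overlaps the E-box CACGTG, which 5 of the 41, 3 of the 18 and 889 of the 11155 hold. Of the genes higher in 2838c3 but not in 6499c4, 96 of 383 promoters held ACGTG (25.1%), and of the genes higher in both 11 of 31 (35.5%). The promoters of the 3 hypoxia targets with a match and the highest difference in 2838c3 are given with the core, or its complement CACGT, in capitals.
Ero1a, chr14:45556037-45556286, minus strand: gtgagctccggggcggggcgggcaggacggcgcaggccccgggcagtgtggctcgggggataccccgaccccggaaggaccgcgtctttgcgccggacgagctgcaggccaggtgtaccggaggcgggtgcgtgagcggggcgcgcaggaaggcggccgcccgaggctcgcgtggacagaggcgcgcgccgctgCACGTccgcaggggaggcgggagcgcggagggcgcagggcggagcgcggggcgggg
Bnip3, chr7:138511254-138511503, minus strand: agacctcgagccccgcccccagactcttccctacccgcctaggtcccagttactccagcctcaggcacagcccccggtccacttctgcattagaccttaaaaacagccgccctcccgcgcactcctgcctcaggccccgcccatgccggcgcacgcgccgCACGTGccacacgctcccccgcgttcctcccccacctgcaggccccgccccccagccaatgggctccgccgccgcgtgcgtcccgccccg
P4ha2, chr11:53991500-53991749, plus strand: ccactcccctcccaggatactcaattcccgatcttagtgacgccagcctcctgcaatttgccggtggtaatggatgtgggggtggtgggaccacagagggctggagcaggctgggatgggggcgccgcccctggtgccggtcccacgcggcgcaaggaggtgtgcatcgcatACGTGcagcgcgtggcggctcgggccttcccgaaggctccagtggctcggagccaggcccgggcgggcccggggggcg
In Bnip3 the capitals are an E-box, so the match reads the same on both strands. The match nearest to the start lay 56 bases before it in Ero1a, 89 in Bnip3 and 78 in P4ha2.

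**Figure D3:**
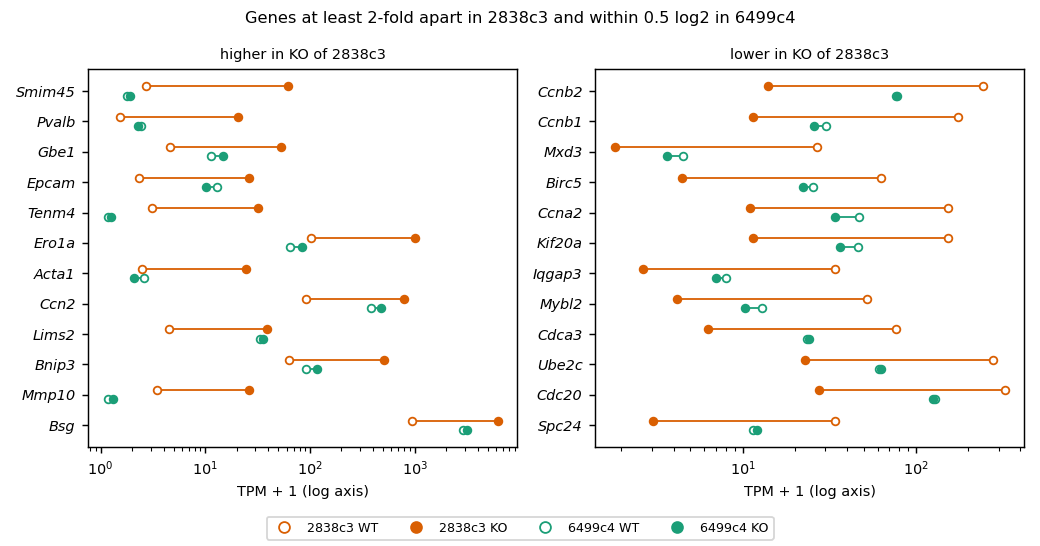
TPM + 1 on a log axis of the 12 genes higher (left) and 12 lower (right) in KO of 2838c3 with a difference within 0.5 in 6499c4; open circles WT, filled circles KO, 2838c3 in orange and 6499c4 in green. The orange pairs are long and the green ones short, as for Ccnb2 (243 to 12.99 against 76.3 to 75.5 TPM).

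Outside these lists the genes that differed in 2838c3 without 6499c4 were many. Of the 632 lower genes 75 belong to the cell cycle lists and 557 do not, and of the 514 higher genes 15 belong to the hypoxia or glycolysis lists and 499 do not. Epcam, an epithelial adhesion molecule, was at 1.35 and 25.1 TPM in 2838c3 and at 12.03 and 9.15 TPM in 6499c4. Its KO in 2838c3 is the highest of the 4 libraries and its parent the lowest. Bsg, the chaperone of lactate transporters, was at 941 and 6240 TPM and at 2878 and 3172 TPM. Lims2, a focal adhesion adaptor, was at 3.54 and 37.5 TPM and at 32.1 and 34.2 TPM. For Epcam and Lims2 the 2838c3 parent is the library that stands low, and its KO reaches or passes the levels of 6499c4. Smim45, Pvalb, Tenm4, Acta1 and Mmp10 stood below 2.5 TPM in the 2838c3 parent and between 19.5 and 60.6 TPM in its KO, and at 1.60 TPM or less in both 6499c4 libraries, where they are hardly expressed.

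Of 19 genes of TGF-beta and activin signalling 9 were at least 2-fold higher in KO of 2838c3, beside 6.01% of all genes, and 1, Inhba, in 6499c4, beside 1.25%, with medians of 0.88 and 0.18. Ccn2, a matricellular growth factor, went from 90.9 to 782 TPM in 2838c3, with 385 and 471 TPM in 6499c4. The receptor gene Tgfbr1 was at 19.4 and 75.1 TPM in 2838c3 and at 11.04 and 8.25 TPM in 6499c4. Of 27 collagen and matrix genes 10 were at least 2-fold higher in 2838c3, beside the same 6.01%, and 2 in 6499c4, Col6a1 and Sparc, beside 1.25%. The list's median was 0.32 in 2838c3, where 8 of the 27 lay below 0, and 0.18 in 6499c4. Among the 10, Thbs1 was at 42.1 and 405 TPM and Fn1 at 129 and 1054 TPM in 2838c3. Thbs1 and Fn1 stood at 6.14 and 12.2 TPM and at 285 and 487 TPM in 6499c4.

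Of 30 targets of NRF2, the factor of the antioxidant response, 11 were at least 2-fold lower in KO of 2838c3, beside 6.44% of all genes, with a median of -0.83. In 6499c4 0 of the 30 were, which is near the 1.36% of all genes, and the median was -0.07. Nqo1, a quinone reductase, went from 148 to 24.2 TPM in 2838c3 and stood at 1.27 and 0.71 TPM in 6499c4, whose parent hardly holds it. Gstm1, a glutathione transferase, went from 1444 to 362 TPM, beside 293 and 155 TPM. Hmox1, heme oxygenase, was higher instead, at 54.0 and 118 TPM and at 41.4 and 68.7 TPM.

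Of 14 secretory and gastric markers 6 were at least 2-fold lower in KO of 2838c3, beside 6.44% of all genes, and 5 in 6499c4, beside 1.36%; Tff1 was the 1 member lower by that much in both. In each line 5 of the 14 lay above 0. Some members were kept through the 1 line that expresses them. In 2838c3 the trefoil gene Tff3 was at 6.39 and 0.79 TPM and the gastrokine Gkn2 at 22.9 and 4.47 TPM, while Gkn2 was listed at 0 in both 6499c4 libraries. In 6499c4 Agr2, a disulfide isomerase of mucin folding, was at 21.8 and 4.45 TPM, and Dmbt1, a mucosal scavenger glycoprotein, at 1272 and 580 TPM. Agr2 was near 0.06 TPM in both 2838c3 libraries.

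In 6499c4, with 2838c3 within 0.5 of 0, 51 genes were higher (0.388%) and 76 lower (0.578%). The interferon-stimulated genes Isg15, Rtp4, Oasl2 and Dhx58 were 4 of 23 that were at least 2-fold higher in 6499c4, beside 1.25% of all genes. Isg15, a ubiquitin-like modifier, was at 3.77 and 10.5 TPM in 6499c4, and at 0.32 TPM and a listed 0 in 2838c3, so it was kept through 6499c4 and its difference in 2838c3 is bound by these low levels. The list's median was 0.50 in 6499c4 and 0.13 in 2838c3.

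Whether a difference was larger in 2838c3 than elsewhere was tested by setting its KO difference against those of the other 3 lines with limma. No gene passed, in either direction (0% higher and 0% lower), 2378 had an unadjusted p under 0.05, and the lowest adjusted p was 0.0938. Epcam was among the genes at that value, with 3.55 in 2838c3 and a gap of 4.05 (SE 0.33) to the mean of the others. Cdc20 was too, with a gap of -3.81 (SE 0.34). Epcam and Cdc20 were named for their differences in 2838c3 and 6499c4, so their gaps are a description. Without 6694c2, which left 6499c4 and 6419c5 for the comparison, the same fit called 201 genes higher in 2838c3 (1.53%) and 341 lower (2.59%). Leaving out 6499c4 or 6419c5 called 0. The 341 hold 44 of 46 mitosis genes and 24 of 46 replication genes, and the 201 hold 12 of 41 hypoxia targets and 4 of 18 glycolytic enzymes. There, the gap was -4.85 (SE 0.50) for Ccnb2 and 3.23 (SE 0.35) for Ero1a, given as a description, since the differences of 2838c3 and 6499c4 chose both genes. The lists were likewise chosen with results of these lines known. The lone 2838c3 pair is assumed to vary like the other lines, and 1 residual degree of freedom is left.

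The lists took different courses in the other lines. Mitosis genes had a median of -0.29 in 6694c2 and 0.93 in 6419c5, and replication genes -0.49 and 0.20. Hypoxia targets had -0.82 and -0.33, and glycolytic enzymes -0.83 and -0.44, below 0 in both, where 2838c3 and 6499c4 were above 0. NRF2 targets had 0.53 and 0.20. Genes of the integrated stress response, which ATF4 drives, had medians of 1.67 in 6694c2 and 1.46 in 6419c5, against -0.23 in 2838c3 and 0.03 in 6499c4.

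**Figure D4:**
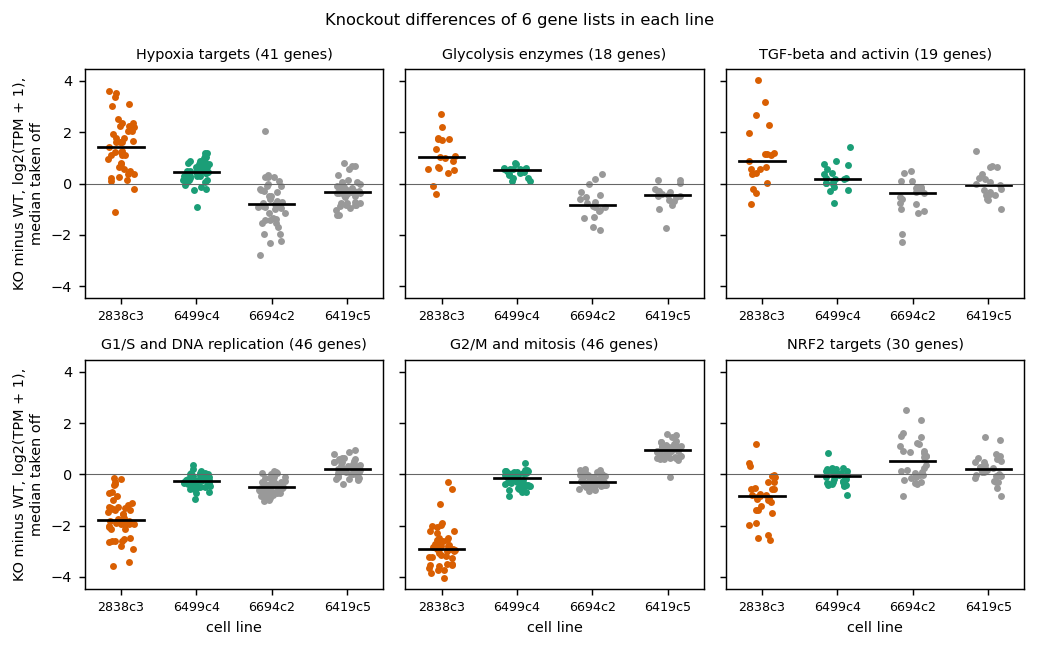
KO minus WT differences on the log2(TPM + 1) scale (y axis, median of all genes taken off) of the members of 6 gene lists in each line (x axis); points are genes, black bars list medians, 2838c3 in orange, 6499c4 in green and the other lines in grey. Mitosis genes sit at a median of -2.90 in 2838c3 and near 0 in 6499c4, and hypoxia targets at 1.41, 0.47, -0.82 and -0.33 from left to right.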

How the data were processed

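The authors deposited TPM, gene by library, in 1 table, and each library sums to 1000000, so depth and the precision of a single value cannot be given. The submitters' processing notes name the mm39 build and DESeq2 2.11.40.8, featureCounts 2.1.1, STAR 2.7.11b and cutadapt 5.1; the step from reads to TPM and its gene lengths are not given in the sources used here. The protocols name a NovaSeq and the design text a HiSeq. Spike-in RNA was not used here.

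Names and promoters came from GENCODE vM39 on GRCm39, which matched 45505 identifiers and left 3810 unnamed. Genes entered when 2 or more of the 4 libraries had a TPM of at least 1, a pseudocount of 1 was added, and each pair's median log2 difference was taken off. limma 3.58.1 in R 4.3.3 with a mean-variance trend gave all p-values, adjusted by Benjamini-Hochberg over 13154 genes with a threshold of 0.05. Each WT and KO pair shares its line, which was the block; deviations from the group means correlated within lines at r = 0.694. The p-values measure the spread between lines.

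The named genes are C1galt1c1, C1galt1, the 12 per direction with the largest smaller difference over both pairs, the 12 per direction with the largest difference in 2838c3 alone, up to 3 per direction that were opposite, and members of described lists by size, with at least 5 TPM in 1 library for the first groups, small RNA and predicted genes skipped. Some members are not reported here. Other list members were named after their values were seen. The members, the 46 lists and the promoter motifs were chosen with earlier results of these data known. Promoters on chromosome 18 and the mitochondrial genome were left out.

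The fits were tested on simulated data of 13154 genes with 100 genes changed per size. With noise at each gene's SE, the paired fit recovered 54 at a log2 change of 1 and 99 at 2 with 28 false calls; that of 2838c3 against the others 3 and 67 with 11, and that of these 2 lines against the other 2 13 and 82 with 6. With noise at the SD over the other 2 lines, shuffled over genes, each of the 3 fits recovered 0 with 0 false calls. That version was run first, so the recovery depends on the noise assumed. Alternatives were a pseudocount of 0.1, no filter, a TPM of 5, no centring, median-ratio scaling, quantile normalization, structural RNA left out, folds of 1.5 and 3, no trend, robust variance, no line block, and libraries or lines left out. Python 3.11.15, pandas 2.3.3 and matplotlib 3.10.9 made tables and figures.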

Additional observations from a re-analysis of the deposited data

Results flagged for a closer look

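Limma called 6 genes whose KO difference in 2838c3 and 6499c4 departed from that in 6694c2 and 6419c5, each given as a log2 gap. They are Gpr15lg at 3.43, Mir7-1 at 4.06, Lars2 at -3.20, Rmrp at -5.77 and the unnamed identifiers ENSMUSG00000094377 at -6.65 and ENSMUSG00000096243 at -6.85, with adjusted p of 0.0119 for ENSMUSG00000094377 and 0.0484 for the other 5. Rmrp, the RNA of RNase MRP, was at 4.68 to 8.09 TPM in all 4 libraries of 2838c3 and 6499c4, but went from 5.04 to 238 TPM in 6694c2 and from 1.90 to 365 TPM in 6419c5. Lars2, the mitochondrial leucyl-tRNA synthetase, was at 43.4 to 58.7 TPM in the former and went from 47.0 to 474 and from 39.4 to 426 TPM in the latter. The 2 unnamed identifiers followed, so these 4 calls rest on the KO libraries of the other lines. Mir7-1, a hairpin gene, was listed at 0 in both parents here and at 2.90 and 4.09 TPM in their KO libraries. The filter kept Mir7-1 only through those KO libraries where it is high, so its call is no independent test.

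For 17 of 42 lists with at least 5 genes kept, the median lay on one side of 0 in both 2838c3 and 6499c4 and on the other in both other lines. These differences were not tested, and no background share was counted for them. Some medians lay close to 0. In 6499c4 they were 0.007 for O-glycan enzymes, 0.015 for mucins, 0.031 for autophagy and 0.063 for the lysosome. The median of -0.10 taken off that pair is larger in size, so the side of 0 of these 4 rests on the centring. The gap between the mean medians was 1.51 for hypoxia targets, 1.40 for glycolysis enzymes, 0.734 for TGF-beta and activin, 0.667 for interferon-stimulated genes, 0.636 for integrins, 0.632 for ductal cell markers, 0.615 for HIF pathway regulators and 0.613 for collagens and matrix. It was 0.555 for the Wnt pathway, 0.467 for mucins and mucin-domain glycoproteins, 0.448 for YAP targets, 0.294 for the lysosome, 0.272 for O-glycan initiation and core enzymes and 0.227 for autophagy and mitophagy. Below 0 were NRF2 targets at -0.812, ribosome biogenesis and MYC targets at -0.792, and the unfolded protein response at -0.776.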

How the results depend on the processing

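Counts are given as higher in both lines, lower in both, higher in 2838c3 alone and lower there alone, which were 58, 39, 514 and 632. A fold of 1.5 gave 283, 196, 1511 and 1725, and a fold of 3 gave 13, 4, 122 and 234. A pseudocount of 0.1 gave 122 and 99 for both lines and a TPM of 5 gave 34 and 18; the remaining counts moved by less than 1.5 times. Limma over the 2 pairs called 0 genes in each alternative, also with no replicate block (232 at an unadjusted p under 0.05) and without any 1 library. The 6 calls of these 2 lines against the other 2 became 0 with a pseudocount of 0.1, no filter or structural RNA left out, and 1 with no centring, median-ratio scaling, quantile normalization, no trend or robust variance, and 0 to 3 without 1 line. The calls of 2838c3 against the others ranged from 0 to 542 without 1 line. The cause was not tested. Of the differences of single genes 713 of 746 and of the list medians 218 of 238 moved by less than the SD over the 2 lines, and no gene difference of 1 or more in size changed sign. That SD comes from the gap between the 2 lines. It is large for genes chosen because they differ between the lines, so for those genes the count could hardly come out otherwise. TPM keep no depth, so low genes cannot be given a counting error. Leaving 2838c3 out of the comparison with the other 3 lines is not possible.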

Other observations

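Some genes of immune signalling were at least 2-fold apart in 2838c3, without a test within the line. The neutrophil chemokine Cxcl5 was at 505 TPM in the parent and 96.4 in KO of 2838c3, beside 62.7 and 52.3 in 6499c4, and Csf1, the macrophage growth factor, was at 34.2 and 7.27 TPM beside 5.17 and 7.11. Ptgs2, the inducible cyclooxygenase, was at 32.1 and 90.1 TPM and at 9.16 and 15.3 TPM. Of 14 cytokine and growth factor genes of myeloid cells, 4 were at least 2-fold higher in 2838c3, beside 6.01% of all genes. They are Lif, Ptgs2, Il34 and Ptges, while 1, Csf1, was lower, beside 6.44%. Of 14 chemokines 3 were at least 2-fold lower in 2838c3, Cxcl5, Cxcl2 and Ccl20, beside 6.44% of all genes, and 0 in 6499c4, near the 1.36% of all genes. None of 13 genes of MHC class I presentation reached 2-fold in either line. Of all genes, 6.01% were higher and 6.44% lower in 2838c3, and 1.25% and 1.36% in 6499c4. With 13 genes, a count of 0 is near these shares. Of 20 genes of the Wnt list 4 were at least 2-fold higher in 2838c3, beside 6.01% of all genes, and 0 lower. In 6499c4 1 was higher, beside 1.25%, and 1 lower, beside 1.36%. The receptor gene Lgr6 was higher in both, at 1.69 and 12.05 TPM and at 5.69 and 13.2 TPM. The ligand gene Wnt7b was at 0.22 and 18.1 TPM in 2838c3 and at 2.76 and 5.53 in 6499c4. The receptor gene Lgr4 was lower in KO of both, at 31.3 and 15.8 TPM and at 27.8 and 11.7 TPM.

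Some genes higher in KO of 2838c3 were lower in KO of 6694c2. Of the 514 genes higher in 2838c3 without 6499c4, 75 were at least 2-fold lower in KO of 6694c2, beside 3.15% of all genes, and 23 at least 2-fold higher, beside 2.68%. In 6419c5 23 were lower, beside 1.5% of all genes, and 17 higher, beside 2.08%. Of the 632 lower genes 29 were at least 2-fold higher in 6694c2 and 50 in 6419c5, beside 2.68% and 2.08% of all genes. At that size 13 of the 632 were lower in 6694c2 and 11 in 6419c5, beside 3.15% and 1.5%. Acta1, skeletal muscle actin, was at 1.47 and 23.2 TPM in 2838c3 and at 39.6 and 0.86 TPM in 6694c2. Pvalb, a calcium-binding protein, was at 0.54 and 19.5 TPM and at 17.0 and 0.51 TPM, and Tenm4, a teneurin, at 2.09 and 31.2 TPM and at 13.5 and 1.44 TPM. The differences of 2838c3 had a Pearson r of -0.13 with those of 6694c2 and of -0.19 with those of 6419c5 over 13154 genes, which are not independent replicates. C1galt1c1 was lower in both KO libraries, at 37.0 and 10.9 TPM in 6694c2, as the labels have it.

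Most genes that went opposite ways in 2838c3 and 6499c4 are not protein-coding. Of the 18 higher in 2838c3 and lower in 6499c4, 3 are protein-coding and 7 are small RNA genes. Of the 22 the other way, 3 are protein-coding and 9 are small RNA genes. Of the 13154 genes kept at least 11155 are protein-coding, and the small RNA genes among them were not counted. Mycn, a MYC family factor, was at 10.1 and 23.3 TPM in 2838c3 and at 6.30 and 2.08 TPM in 6499c4, and Pdzk1ip1 at 1.68 and 9.03 TPM and at 20.0 and 8.51 TPM. Acaa1b, a peroxisomal thiolase, was at 11.6 and 2.39 TPM and at 3.19 and 10.4 TPM.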
